A study of Mus musculus with 2 samples.

Results

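Principal cells of the kidney collecting duct were studied here, in the form of the cells that carried their genes while Lcn2 stayed low. Of 11607 cells kept from both libraries, 963 met the rule, 901 of them from the knockout (KO) library and 62 from the wild type (WT) library. A cell had to have at least 0.3% of its transcripts from 4 principal cell genes together, Aqp2, Aqp3, Hsd11b2 and Fxyd4. It also had to have less than 0.5% from Lcn2, the gene of the injury protein lipocalin 2, and fewer than 3 transcripts each of Calb1, Slc12a1, Slc12a3 and Atp6v1g3, which mark neighbouring segments and intercalated cells. Levels of these 9 genes in the chosen cells follow from the rule and are given as description only. The single-cell data came from kidneys of 5-week-old mice, a KO mouse group named Kif3aΔTub, in which per its name the cilium motor gene Kif3a is deleted in the tubule, and a WT group. The driver of the deletion, the deleted part of the gene, the strain and the number of mice behind each library are not given in the sources used here. The series title places the work on factors from diseased kidneys that act on skeletal muscle. Each genotype gave 1 library, so the spread between mice is unknown and no difference below was tested for genotype.

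Principal cells take up sodium through the epithelial sodium channel ENaC and secrete potassium through ROMK, both under the control of aldosterone. Vasopressin, acting through its receptor and cyclic AMP, brings the water channel aquaporin 2 to the apical membrane, and water leaves the cell through aquaporins 3 and 4 on the other side. Each principal cell carries a primary cilium, whose assembly needs the kinesin that Kif3a belongs to, and loss of tubular cilia leads to cystic kidneys in mice.

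Cells were captured with 10x 3′ chemistry, in which each transcript is counted once as a unique molecular identifier (UMI). Of 7950 KO and 6938 WT barcodes, 7236 KO and 4371 WT barcodes were kept, with 500 or more UMIs, 200 or more detected genes and a mitochondrial share below 50%. The members held 9874581 UMIs in KO and 291320 UMIs in WT, so the WT side had far less depth. Their median depth was 8630 UMIs and 3046 genes per cell in KO, against 4631.5 UMIs and 1988 genes in WT. Median mitochondrial shares were 7.56% in KO members and 14.9% in WT members, and over all kept cells 7.55% in KO and 26.8% in WT. The libraries shared 20 barcodes, and 4 KO members and 0 WT members carried one of them.

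The members made up 12.5% of kept KO cells (11.7% to 13.2%, exact binomial interval) and 1.42% of kept WT cells (1.09% to 1.82%). The ratio of these shares was 8.78 (6.78 to 11.5), and the intervals cover counting error only. Beside this ratio, 372 KO and 1361 WT barcodes that met the limits on depth stood at or over the mitochondrial limit, and 7 KO and 12 WT barcodes of these met the rest of the rule. The limit on Calb1 also took unequal parts, since 406 of 2238 KO cells and 137 of 202 WT cells with the principal cell genes had 3 or more Calb1 UMIs. With the Calb1 limit dropped, a choice made after seeing the data, the shares were 15.4% in KO and 4.05% in WT, and the ratio was 3.81. After the limits on neighbouring genes 1657 KO and 62 WT cells remained. The Lcn2 limit then removed 756 of the KO cells, or 45.6%, and 0 of the WT cells. Over 9 alternative rules the ratio of shares lay between 2.03, with Lcn2 under 0.1%, and 16.1, with no limit on Lcn2. These 756 cells had no WT counterpart, and a count of 0 allows a WT share of up to 0.0686%. Near the Lcn2 limit lay 60 KO cells up to 0.05 percentage points below it, with a median of 0.469%, and 69 KO cells as far above it, with a median of 0.529%. Around the limit on the principal cell genes lay 38 KO cells just inside and 35 just outside. In WT 1 cell lay just inside that limit and 0 just outside, and none lay within that distance of the Lcn2 limit.

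**Figure D1:**
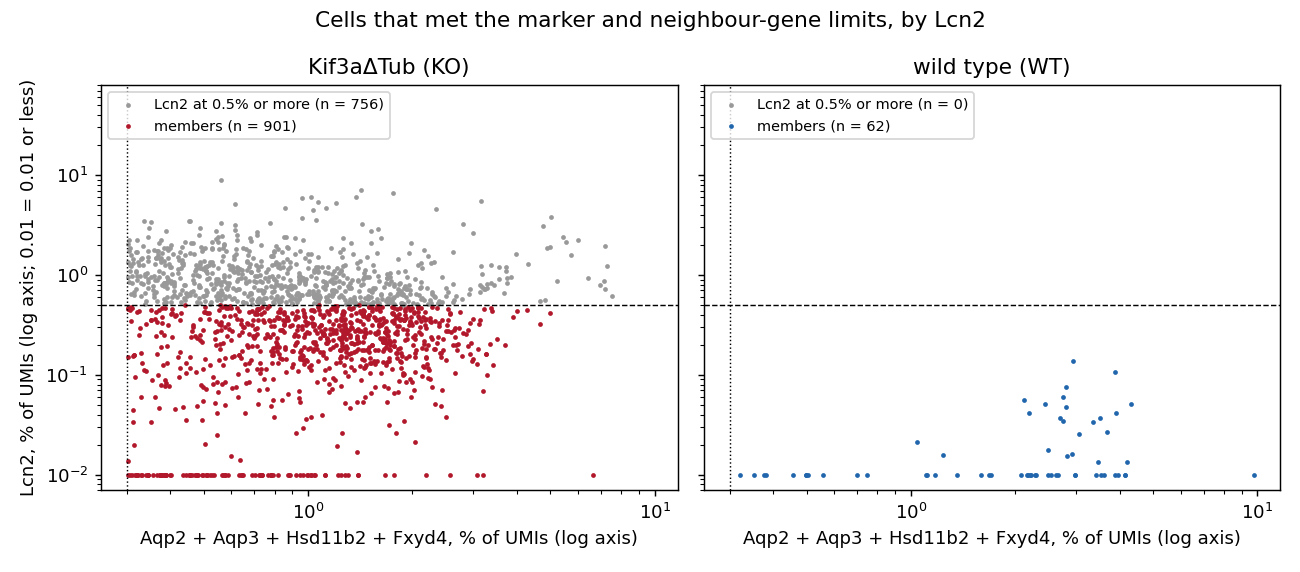
Each point is a cell that met the limits on the principal cell genes and on neighbouring segments, with the share of UMIs from the 4 principal cell genes on the x axis and that from Lcn2 on the y axis, both on log axes and with Lcn2 shares of 0.01% or less drawn at 0.01%, for KO on the left and WT on the right. The 901 KO members lie below the dashed Lcn2 limit and 756 further KO cells above it, while all 62 WT cells lie below it.

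Among themselves the members spread widely. The share of UMIs from the 4 principal cell genes had a median of 1.12% in KO, with quartiles of 0.667% and 1.65%, and a median of 2.49% in WT, with quartiles of 1.27% and 3.28%. Summed over cells, Aqp2 stood at 4666 CPM in KO cells and 9042 CPM in WT cells, where CPM is the gene's summed UMIs scaled to the total UMIs of the same cells. Aqp3 stood at 1049 CPM in KO cells and 2787 CPM in WT cells. Fxyd4, a regulator of the sodium pump, stood at 4237 CPM in KO cells and 10051 CPM in WT cells, and Hsd11b2, the enzyme that shields the aldosterone receptor from cortisol, at 2779 CPM in KO cells and 4342 CPM in WT cells. All 4 were lower in KO than in WT members, and in macrophages and endothelial cells of either library their summed share had a median of 0. In KO 2.08% of 867 macrophages, 0.781% of 384 endothelial cells and 1.67% of 956 proximal tubule cells reached the 0.3% limit, against 0 of 9, 0 of 127 and 0.202% of 2969 in WT. Lcn2 below its limit stood at 2680.2 CPM in KO cells and 251 CPM in WT cells.

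The label was checked against principal cell genes that the rule did not use, and all 8 were detected in both libraries: Avpr2, Aqp4, Scnn1b, Scnn1g, Gata3, Npnt, Apela and Ptges. Together they stood at 4656 CPM in KO members and 5159 CPM in WT members, against 1644 CPM in the other KO cells and 238 CPM in the other WT cells. The other cells are all kept cells that are not members, so they hold further cells with principal cell genes. Among them were 756 KO and 0 WT cells removed by the Lcn2 limit, and 216 KO and 115 WT cells removed by the Calb1 limit alone. In KO 38 members, and in WT 2 members, had no UMI of any of the 8. Genes of other cells were present too. The 6 connecting tubule genes stood at 434 CPM in KO members and 1627 CPM in WT members, against 1557 CPM in the other KO cells and 1024 CPM in the other WT cells. Trpv5 was at 0 in WT members, and 41 KO and 5 WT members held 0.3% or more of the 6 genes. In the WT sum S100g alone gave 1157 CPM, and 273 of its 337 WT UMIs came from 1 cell. Calb1, which the rule limits, stood at 24.7 CPM in KO members and 165 CPM in WT members. Its UMIs were seen in 186 KO and 33 WT members. The part of connecting tubule genes in the results was not tested. The 8 proximal tubule genes stood at 503 CPM in KO members and 2022 CPM in WT members, against 6735 CPM in the other KO cells and 42735 CPM in the other WT cells. The androgen-controlled proximal gene Kap alone gave 1.62 CPM in KO cells and 601 CPM in WT cells, and 33 KO and 11 WT members held 0.3% or more of proximal tubule genes. Intercalated cell genes stood at 222 CPM in KO and 158 CPM in WT, with Slc4a1 at 0 in KO and Atp6v1g3, Slc26a4 and Hmx2 at 0 in WT. Immune genes stood at 231 CPM in KO, where 8 of 10 were detected and the T cell gene Cd3e and the B cell gene Cd79a were at 0. In WT they stood at 6.87 CPM, with all but Ptprc at 0. Endothelial genes stood at 24.1 CPM in KO and 6.87 CPM in WT, where 1 of 6 was detected. Leaving out the members with 0.3% or more of proximal, intercalated, immune, endothelial, stromal or urothelial genes was likewise chosen after seeing the data. It kept 840 KO and 50 WT cells, and none of the genes counted as 2-fold higher or lower below changed direction under it.

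Kif3a, on chromosome 11 (GRCm38, 53567379 to 53601967), stood at 10.0 CPM in KO cells and 27.5 CPM in WT cells, from 99 UMIs in KO and 8 in WT (log2 ratio -1.53, -2.49 to -0.20; here and below the interval is the exact 95% interval of a ratio of Poisson counts and covers counting error only). It was lower in KO members than in WT members, while the other cells stood at 12.4 CPM in KO and 10.2 CPM in WT. With a mean of 18.7 CPM it lay below the level at which genes are counted as measured below. The 3′ tag may lie outside the deleted part, so this level checks neither the deletion nor the labels. Its sign turned in the members with no UMI of the neighbouring genes, with a log2 ratio of 1.04.

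In all, 6291 genes reached a mean of 20 CPM over both libraries and were called measured. A level of 20 CPM is 197.5 UMIs in the KO members but only 5.83 UMIs in the WT members. Of the measured genes 346, or 5.5%, stood at least 2-fold higher in KO and 352, or 5.6%, at least 2-fold lower, and the median log2 ratio was -0.05, with quartiles of -0.40 and 0.33. With totals that leave out mitochondrial genes the counts were 314 higher and 565 lower. These shares are the background for the counts of each gene list below, and 11 measured genes had no UMI at all in WT. The lists were chosen with earlier results of these data known, so their counts are descriptions.

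Water handling genes beside the aquaporins of the rule were near equal or lower in KO members. Of 18 genes on the list of vasopressin signalling and water transport 12 were measured, 0 stood at least 2-fold higher and 1 at least 2-fold lower, with a median log2 ratio of -0.32. The vasopressin receptor gene Avpr2 stood at 197 CPM in KO cells and 312 CPM in WT cells (log2 ratio -0.67, -0.97 to -0.34). Aqp4, the water channel of the basolateral membrane, stood at 516 CPM in KO cells and 687 CPM in WT cells (log2 ratio -0.42, -0.62 to -0.20). Among the members both receptor and channel were lower in KO, by less than 2-fold. In the cells removed by the Calb1 limit alone Aqp4 stood the other way, at 432 CPM in KO and 241 CPM in WT (log2 ratio 0.84, 0.64 to 1.05). The direction of Aqp4 was thus not the same on both sides of that limit. Avpr2 was near level in those cells, at 223 CPM in KO and 235 CPM in WT. Akap7, which anchors protein kinase A, was the 1 gene past 2-fold, at 22.0 CPM in KO cells and 61.8 CPM in WT cells (log2 ratio -1.53, -2.19 to -0.71). Gnas, the G protein that couples the receptor to cyclase, stood at 454 CPM in KO cells and 573 CPM in WT cells, and the cyclase Adcy6 at 31.4 CPM in KO cells and 37.8 CPM in WT cells with an interval that held 0. The ETS factor Elf5, which is restricted to principal cells in the mouse kidney, went the other way at 158 CPM in KO cells and 103 CPM in WT cells (log2 ratio 0.60, 0.10 to 1.19). The phosphodiesterase Pde4d, the kinase subunit Prkaca, Creb1, Grhl2, Tmem9b and the chaperone Hspa8 had intervals that held 0.

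Sodium transport genes differed in direction from each other. The 3 ENaC subunits differed in direction: Scnn1a stood at 438 CPM in KO cells and 275 CPM in WT cells (log2 ratio 0.66, 0.35 to 1.01), Scnn1b at 338 CPM in KO cells and 436 CPM in WT cells (log2 ratio -0.37, -0.62 to -0.10) and Scnn1g at 169 CPM in KO cells and 254 CPM in WT cells (log2 ratio -0.60, -0.93 to -0.24). The alpha subunit was thus higher in KO and the beta and gamma subunits lower, although Scnn1a came to a log2 ratio of -0.25 when every cell was thinned to 1000 UMIs. The steroid receptors also differed. Nr3c2, the mineralocorticoid receptor that aldosterone binds, stood at 24.7 CPM in KO cells and 92.7 CPM in WT cells (log2 ratio -1.93, -2.48 to -1.28), while Nr3c1, the glucocorticoid receptor, stood at 42.4 CPM in KO cells and 10.3 CPM in WT cells from 419 UMIs in KO and 3 in WT (log2 ratio 1.82, 0.49 to 4.33). Sgk1, an aldosterone-induced kinase that keeps ENaC in the membrane, stood at 125 CPM in KO cells and 68.7 CPM in WT cells (log2 ratio 0.83, 0.24 to 1.59). Of 14 measured genes of this list 1 stood at least 2-fold higher and 2 at least 2-fold lower, with a median log2 ratio of -0.09. The second of these 2 lower genes was Fxyd2, a sodium pump subunit of the proximal and distal tubule, at 189 CPM in KO cells and 635 CPM in WT cells. Of its 185 WT UMIs 88 came from 1 cell, and without that cell WT stood at 349 CPM. The pump subunit Atp1b1 was nearly level at 3194 CPM in KO cells and 3436 CPM in WT cells. Nedd4l, Tsc22d3, Prss8 and Usp2 had intervals that held 0, and the kinase Wnk1 stood at 90.6 CPM in KO cells and 134 CPM in WT cells.

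Potassium channel genes stood mostly lower in KO members. An interval below 0 was found for 4 of 6 measured genes and one above it for 0. Without the same count over all genes, these numbers have no background to be read against. Of these 6 genes 0 stood at least 2-fold higher and 3 at least 2-fold lower, with a median log2 ratio of -0.86. Kcnj1, which encodes ROMK, stood at 312 CPM in KO cells and 625 CPM in WT cells (log2 ratio -1.01, -1.22 to -0.78). Kcnj10, a basolateral potassium channel, stood at 24.7 CPM in KO cells and 96.1 CPM in WT cells (log2 ratio -1.98, -2.53 to -1.34), and the channel subunit Kcne1 at 55.1 CPM in KO cells and 168 CPM in WT cells (log2 ratio -1.62, -2.03 to -1.16). Its partner Kcnq1 stood at 55.8 CPM in KO cells and 89.2 CPM in WT cells, lower by less than 2-fold. Kcnj16 and Kcnk1 had intervals that held 0. With no limit on Calb1, which raised the WT depth to 1251072 UMIs, the log2 ratios were -0.90 for Kcnj1, -1.73 for Kcnj10 and -2.34 for Kcne1.

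**Figure D2:**
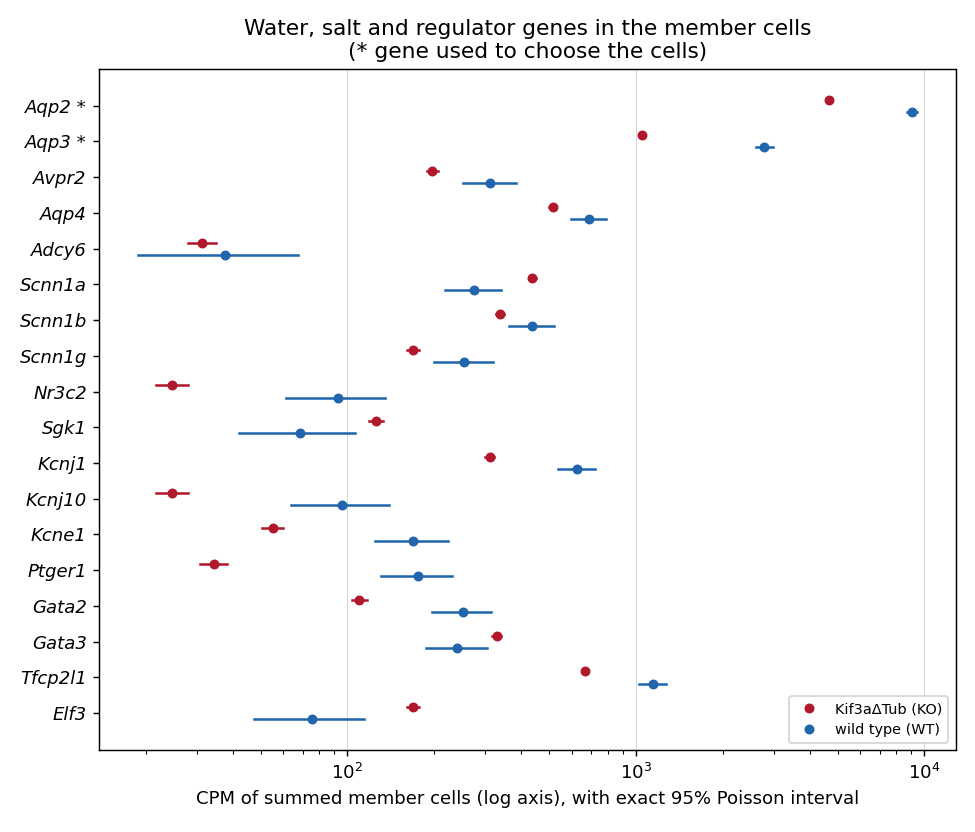
Levels in CPM, on a log axis, of 18 water, salt and regulator genes in the summed member cells of KO (red, above) and WT (blue, below), with exact 95% Poisson intervals. Kcnj1, Kcne1, Nr3c2 and Ptger1 lie to the left in KO, while Scnn1a, Sgk1 and Elf3 lie to the right, and WT intervals are wider throughout.

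Local signals that act on the duct showed 1 large difference. Ptger1, a receptor for prostaglandin E2, stood at 34.4 CPM in KO cells and 175 CPM in WT cells (log2 ratio -2.36, -2.77 to -1.89). The other 5 measured genes of this list stayed within 2-fold, among them the cyclooxygenase Ptgs1 at 134 CPM in KO cells and 213 CPM in WT cells and the prostaglandin E synthase Ptges at 50.5 CPM in KO cells and 61.8 CPM in WT cells. Ednrb, P2rx4 and Pla2g4a had intervals that held 0. The list median was -0.22.

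Transcription factors of the collecting duct gave 1 gene at least 2-fold higher and 3 at least 2-fold lower of 17 measured, with a median log2 ratio of -0.12. Elf3, an epithelial ETS factor, stood at 169 CPM in KO cells and 75.5 CPM in WT cells (log2 ratio 1.13, 0.56 to 1.84). Gata2, a regulator of Aqp2, stood at 110.1 CPM in KO cells and 251 CPM in WT cells (log2 ratio -1.20, -1.53 to -0.82), while its relative Gata3 stood at 329 CPM in KO cells and 240.3 CPM in WT cells (log2 ratio 0.45, 0.11 to 0.82). The pair therefore differed in direction. Sim1 stood at 58.3 CPM in KO cells and 182 CPM in WT cells (log2 ratio -1.65, -2.05 to -1.21) and the ETS factor Ehf at 174 CPM in KO cells and 360.4 CPM in WT cells (log2 ratio -1.06, -1.34 to -0.76). Tfcp2l1, which maintains the cell types of the duct, stood at 666 CPM in KO cells and 1147 CPM in WT cells (log2 ratio -0.78, -0.94 to -0.62), lower by less than 2-fold. Tfap2b stood at 50.2 CPM in KO cells and 96.1 CPM in WT cells, Hoxd8 at 231 CPM in KO cells and 302 CPM in WT cells and the ureteric bud gene Hoxb7 at 177 CPM in KO cells and 117 CPM in WT cells, which was the higher one in KO. Pax2, Pax8, Emx2, Lhx1, Mecom, Nfat5 and Hoxb9 had intervals that held 0.

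Notch signals set the balance of principal and intercalated cells, and of 7 measured genes of that pathway 0 were past 2-fold in either direction. Its target Hes1 stood at 158 CPM in KO cells and 203 CPM in WT cells and the ligand Jag1 at 43.5 CPM in KO cells and 24.0 CPM in WT cells, both with intervals that held 0. The sheddase Adam10, which releases Notch, stood at 132 CPM in KO cells and 75.5 CPM in WT cells (log2 ratio 0.77, 0.20 to 1.49). Notch2, Rbpj, Mib1 and the intercalated cell factor Foxi1 had intervals that held 0, and all 8 WT UMIs of Foxi1 came from 1 cell. Among 13 measured genes of tight and adherens junctions 2 stood at least 2-fold higher and 0 lower, with a median log2 ratio of 0.30. These were the claudins Cldn3, at 222 CPM in KO cells and 85.8 CPM in WT cells (log2 ratio 1.34, 0.81 to 2.00), and Cldn19, at 166 CPM in KO cells and 51.5 CPM in WT cells (log2 ratio 1.64, 0.96 to 2.53). Cldn4, a chloride-permeable claudin of the duct, stood at 161 CPM in KO cells and 106 CPM in WT cells, and Cldn8, its partner there, at 161 CPM in KO cells and 223 CPM in WT cells. The adhesion gene Cdh16 stood at 1059 CPM in KO cells and 1847 CPM in WT cells and Epcam at 1584 CPM in KO cells and 1284 CPM in WT cells. Cldn7 stood at 350.2 CPM in KO cells and 268 CPM in WT cells, Ctnnb1 at 211 CPM in KO cells and 154 CPM in WT cells and Tjp3 at 37.4 CPM in KO cells and 65.2 CPM in WT cells, and Tjp1, Ocln, Cdh1 and F11r had intervals that held 0.

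The genes named next were the 12 with the highest and the 12 with the lowest log2 ratios among genes whose higher library held 50 CPM and 50 UMIs or more, whose interval left out 0, and whose level there was no lower than in the library's other cells. The choice used the values, so the direction of these genes is a description. Of the 12 higher genes 5 had no UMI in the 62 WT cells, and for these the fold is a bound set by 3 counts over the summed WT members, or 10.3 CPM. Socs3, which is induced by cytokine signals through STAT3 and then inhibits them, stood at 169.7 CPM in KO cells and 0 CPM in WT cells and was at least 16.5-fold higher. Pdpn, the membrane glycoprotein podoplanin, stood at 112 CPM in KO and 0 in WT, at least 10.9-fold higher. Il18r1, a chain of the interleukin 18 receptor, stood at 103 CPM in KO and 0 in WT, at least 9.96-fold higher. At least 1 UMI of these 3 genes was seen in 45.8%, 52.3% and 47.1% of KO members and in none of the WT members. The WT cells were shallower, and after thinning to 1000 UMIs the shares were 13.7%, 10.4% and 10.2% of 797 KO members and 0 of 49 WT members, for which the exact binomial interval reaches 7.25%. In the KO endothelial cells, a type apart from the duct, Pdpn and Il18r1 were at 3.22 and 3.22 CPM, and Socs3, which those cells also express, at 154 CPM. Rprm, a p53 target linked to cell cycle arrest, was at least 6.0-fold higher, at 61.8 CPM in KO. Sprr2f, a gene of squamous envelopes, was at least 8.19-fold higher at 84.4 CPM in KO, but 3 KO cells held 69.6% of its UMIs.

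The promoters of Socs3 and Il18r1 are shown because STAT proteins, which drive Socs3, bind the letters TTCNNNGAA, and the promoter of Aqp2 because GATA factors, whose levels are given above, bind AGATAA. Each window runs 250 bases before to 50 bases after a RefSeq start, 5′ to 3′ on the strand of the gene, from RefSeq on GRCm38.p6, with matches in capitals (TTCNNNGAA for Socs3 and Il18r1, AGATAA or its complement TTATCT for Aqp2).
Aqp2, chr15:99578806-99579105, plus strand: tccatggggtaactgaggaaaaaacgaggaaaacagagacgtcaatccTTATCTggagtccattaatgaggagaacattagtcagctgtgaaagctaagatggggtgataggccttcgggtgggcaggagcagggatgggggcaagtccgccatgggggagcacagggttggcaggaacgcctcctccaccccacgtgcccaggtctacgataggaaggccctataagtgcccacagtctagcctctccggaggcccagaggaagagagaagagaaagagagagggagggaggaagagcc
Socs3, chr11:117969317-117969616, minus strand: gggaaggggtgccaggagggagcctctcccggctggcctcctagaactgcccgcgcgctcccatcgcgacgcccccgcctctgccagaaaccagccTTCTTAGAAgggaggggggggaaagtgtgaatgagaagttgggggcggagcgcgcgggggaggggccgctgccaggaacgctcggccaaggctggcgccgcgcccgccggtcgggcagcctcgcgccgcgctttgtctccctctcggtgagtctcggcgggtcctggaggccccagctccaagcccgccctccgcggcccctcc
Il18r1, chr1:40465756-40466055, plus strand: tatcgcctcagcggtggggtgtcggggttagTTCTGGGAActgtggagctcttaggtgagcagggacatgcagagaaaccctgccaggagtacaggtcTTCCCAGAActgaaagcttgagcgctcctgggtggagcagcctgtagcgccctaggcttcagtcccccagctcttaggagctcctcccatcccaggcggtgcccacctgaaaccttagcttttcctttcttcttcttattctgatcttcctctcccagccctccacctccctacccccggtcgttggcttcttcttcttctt
For Socs3 and Il18r1 this start lies inside the gene as GENCODE places it, and the Il18r1 window is the 1 of 3 in the table that held the letters. Aqp2 held 1 match at position -202 from its start, Socs3 1 at -154, and this window of Il18r1 2 at -219 and -152. The STAT letters stood in 8.30% and the GATA letters in 11.2% of 32851 windows of this length. Of the 12 higher genes 10 had 13 windows in the table and 3 of these windows held the STAT letters, that of Dcdc2a being the third. Of the 12 lower genes 8 had 9 windows and 0 held them, and 0 windows of either group held the GATA letters. A match is a description of the sequence and not a site of binding.

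The other 7 higher genes had WT UMIs, in most cases 1. Clu, which encodes the secreted chaperone clusterin, stood at 3259 CPM in KO cells and 219.7 CPM in WT cells (log2 ratio 3.88, 3.54 to 4.27). Of its 64 WT UMIs 49 came from 1 cell, and without that cell WT stood at 53.9 CPM (log2 ratio 5.87, 5.20 to 6.75). Krt19, a keratin of simple and injured epithelium, stood at 227 CPM in KO cells and 20.6 CPM in WT cells (log2 ratio 3.35, 2.34 to 4.91). Dcdc2a, a doublecortin protein of microtubules and cilia, stood at 163 CPM in KO cells and 3.43 CPM in WT cells, from 1605 UMIs in KO and 1 in WT (log2 ratio 4.98, 3.09 to 10.87). Scn8a, a voltage-gated sodium channel, stood at 76.0 CPM in KO cells and 3.43 CPM in WT cells, and Adamts1, a secreted protease, at 85.1 CPM in KO cells and 3.43 CPM in WT cells. Ociad2 stood at 171 CPM in KO cells and 3.43 CPM in WT cells, and Rflnb, a filamin-binding protein, at 52.7 CPM in KO cells and 3.43 CPM in WT cells. Ociad2, Dcdc2a, Adamts1, Scn8a and Rflnb each had 1 WT UMI, so their sizes are open to that count while KO gave between 520 and 1684 UMIs. Adamts1 and Rflnb were also at 133 and 185 CPM in KO endothelial cells, above their level in the KO members.

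Among the 12 lower genes the values of 3 rested on 1 WT cell each. Klk1, tissue kallikrein, stood at 165 CPM in KO cells and 1401 CPM in WT cells, but 375 of its 408 WT UMIs came from 1 cell, without which WT stood at 119 CPM (log2 ratio 0.45, -0.02 to 1.02). The same cell held 273 of the 337 WT UMIs of S100g, the calcium-binding protein calbindin-D9k, at 182 CPM in KO cells and 1157 CPM in WT cells, or 230.0 CPM in WT without it (log2 ratio -0.35, -0.70 to 0.04). Another cell held 54 of the 56 WT UMIs of the mitotic gene Cenpf, at 16.2 CPM in KO cells and 192 CPM in WT cells, or 7.17 CPM in WT without it. The others were spread over more cells. Ptger1 and Sim1 are described above. Kitl, the ligand of the receptor Kit, stood at 32.4 CPM in KO cells and 178 CPM in WT cells (log2 ratio -2.47, -2.89 to -2.01), with UMIs in 26 of 62 WT cells. The linker histone gene Hist1h1c stood at 42.2 CPM in KO cells and 360.4 CPM in WT cells (log2 ratio -3.10, -3.41 to -2.77) and Hist1h2bc at 61.0 CPM in KO cells and 323 CPM in WT cells (log2 ratio -2.41, -2.72 to -2.07). Pgam2, a phosphoglycerate mutase of glycolysis, stood at 25.6 CPM in KO cells and 178 CPM in WT cells (log2 ratio -2.81, -3.24 to -2.34). Olfm1 stood at 44.4 CPM in KO cells and 175 CPM in WT cells (log2 ratio -1.99, -2.40 to -1.53) and the scaffold gene Iqgap2 at 65.9 CPM in KO cells and 213 CPM in WT cells (log2 ratio -1.70, -2.07 to -1.29). Histone, Klk1, Sprr2f, Ifitm, H2 and Hspa1 genes have close copies, and how the authors' counting treated reads shared between copies was not examined.

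**Figure D3:**
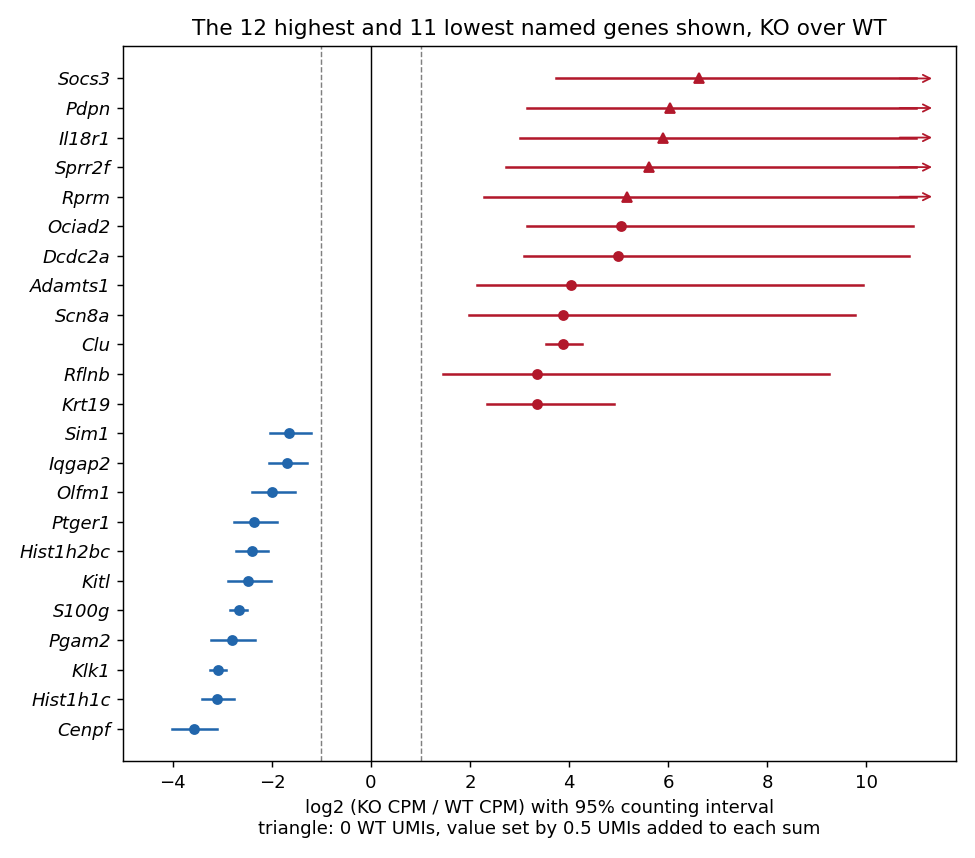
Log2 ratios of KO over WT CPM for the 12 highest and 11 of the 12 lowest genes, with 95% counting intervals. Triangles mark the 5 genes with no WT UMI, whose plotted value is set by the 0.5 UMIs added to each sum and whose interval has no upper end. The intervals of the higher genes are wide, since most rest on 0 or 1 WT UMI, and those of the lower genes are narrow.

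Injury genes of the tubule were mostly higher in KO members although cells with high Lcn2 had been left out. An interval above 0 was found for 16 of 19 measured genes. That count was not made over all genes, so whether it is unusual cannot be told from it. Of 28 genes on this list 19 were measured, 11 stood at least 2-fold higher and 0 lower, against 5.5% and 5.6% over all genes, with a median log2 ratio of 1.21. This list was chosen with earlier results of these data known, so the contrast is a description. S100a6, a calcium-binding protein of regenerating epithelium, stood at 1334 CPM in KO cells and 13.7 CPM in WT cells (log2 ratio 6.43, 5.25 to 8.48), with UMIs in 71.9% of KO members and 4.84% of WT members. Spp1, the secreted matrix protein osteopontin, stood at 11409 CPM in KO cells and 261 CPM in WT cells (log2 ratio 5.44, 5.13 to 5.79). A UMI of Spp1 was seen in 98.0% of KO members and 32.3% of WT members. Anxa3, an annexin, stood at 128 CPM in KO and 0 in WT, at least 12.4-fold higher. The keratins Krt8 and Krt18, the filament pair of simple epithelium, stood at 747 and 1085 CPM in KO and at 354 and 467 CPM in WT. Tmsb10, an actin-binding thymosin, stood at 544 CPM in KO cells and 137 CPM in WT cells (log2 ratio 1.97, 1.54 to 2.47), Anxa2 at 392 CPM in KO cells and 106 CPM in WT cells (log2 ratio 1.86, 1.37 to 2.44), and its partner S100a10 at 512 CPM in KO cells and 189 CPM in WT cells (log2 ratio 1.43, 1.06 to 1.85). Sox4, a factor of developing and injured epithelium, stood at 197 CPM in KO cells and 68.7 CPM in WT cells (log2 ratio 1.49, 0.89 to 2.24). The other 2 of the 11 were Clu and Krt19. Krt7 at 1133 CPM in KO cells and 886 CPM in WT cells, Cd24a at 723 CPM in KO cells and 618 CPM in WT cells, S100a11 at 3489 CPM in KO cells and 2533 CPM in WT cells, Lgals3 at 1244 CPM in KO cells and 762 CPM in WT cells and Tmsb4x at 16085 CPM in KO cells and 14115 CPM in WT cells were higher by less than 2-fold. Anxa1, Anxa5 and Itgb6 had intervals that held 0.

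RNA that is free in the cell suspension reaches every droplet, so the same genes were read in endothelial cells under the 0.3% limit on principal cell genes, 381 in KO with a median of 3070 UMIs and 127 in WT with a median of 2782 UMIs. Spp1 stood there at 1808 CPM in KO and 82.2 CPM in WT, below its level of 11409 CPM in the KO members, and 74.0% of the KO endothelial cells had a UMI of it, against 98.0% of the KO members. Clu stood at 265 CPM in KO and 73.5 CPM in WT endothelial cells, with a UMI in 42.0% of the KO ones, against 89.1% of the KO members. The KO members were deeper, with a median of 8630 UMIs, so these shares of cells were not read at equal depth. Krt18 stood at 35.4 CPM in KO and 1.75 CPM in WT endothelial cells, and Krt19 at 13.5 CPM in KO and 0 CPM in WT. These levels were all lower than in the KO members. Set beside the WT members, the KO endothelial levels of Spp1 and Clu were higher and those of Krt18 and Krt19 lower. How much free RNA adds to the differences between the libraries was not tested. S100a6, S100a10, Anxa3, Ifitm3 and Sparc stood higher in the endothelial cells of both libraries than in the KO members, and cannot serve for this check.

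**Figure D4:**
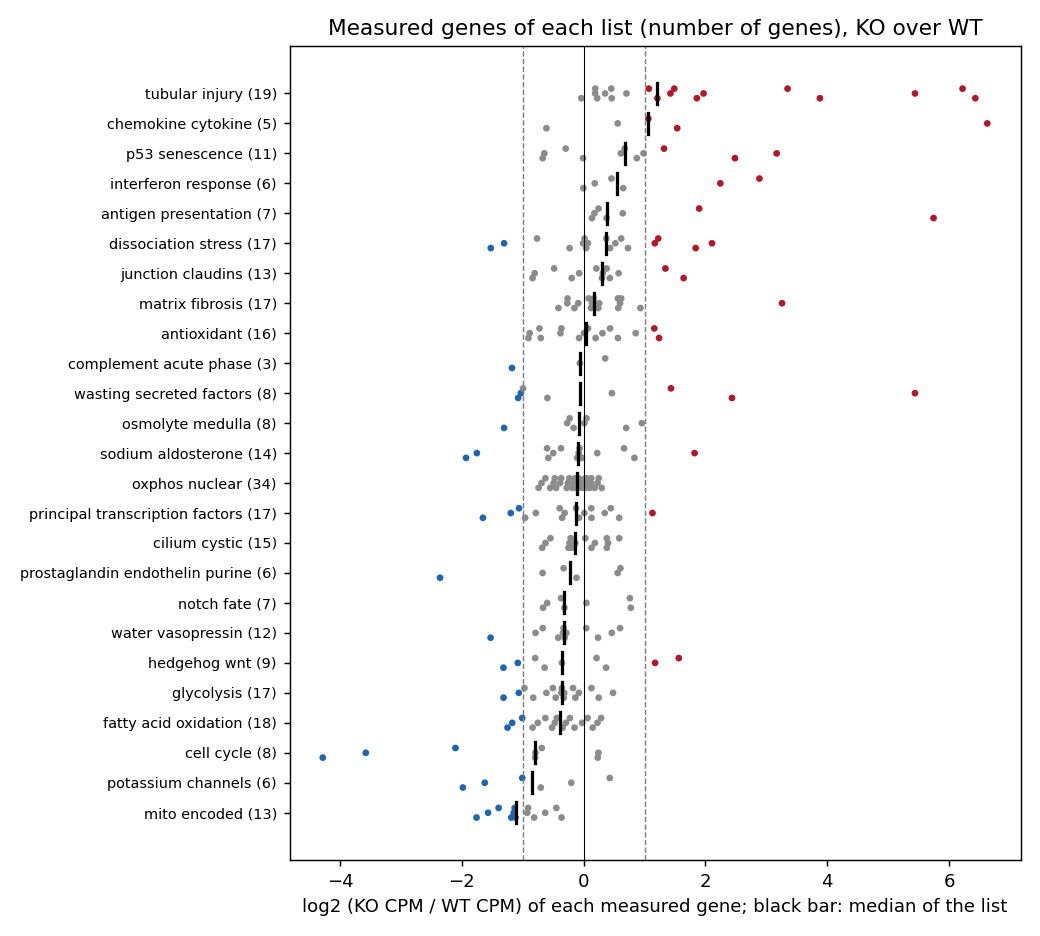
Each point is the log2 ratio of KO over WT CPM of 1 measured gene, grouped by gene list with the number of measured genes in brackets. Points at 1 or more are red, points at -1 or less blue, and black bars are medians. The tubular injury list has the highest median, 1.21, the mitochondrially encoded genes the lowest, -1.12, and nuclear oxidative phosphorylation genes lie close to 0.

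Secreted factors that have been linked to muscle wasting were mostly below the level at which genes counted as measured, with 8 of 30 above it. Of these 3 stood at least 2-fold higher and 2 at least 2-fold lower, and the median log2 ratio was -0.07. Beside Spp1, the higher genes included the stress cytokine Gdf15, which lowers appetite through its receptor in the brainstem. Gdf15 stood at 227 CPM in KO cells and 82.4 CPM in WT cells (log2 ratio 1.43, 0.89 to 2.11). Its UMIs were seen in 44.5% of KO and 25.8% of WT members and in 1.31% of the shallower KO endothelial cells. Tgfb2, a transforming growth factor, stood at 46.4 CPM in KO cells and 6.87 CPM in WT cells from 458 UMIs in KO and 2 in WT (log2 ratio 2.44, 0.89 to 5.81). Lower in KO were Igfbp7, a binding protein of insulin-like growth factors, at 1322 CPM in KO cells and 2784 CPM in WT cells (log2 ratio -1.08, -1.18 to -0.97), and Metrnl, a secreted factor of muscle and fat, at 41.1 CPM in KO cells and 82.4 CPM in WT cells (log2 ratio -1.03, -1.60 to -0.34). Fstl1, follistatin-like 1, stood at 87.0 CPM in KO cells and 172 CPM in WT cells (log2 ratio -0.99, -1.39 to -0.54), and the protease inhibitor Cst3 at 683 CPM in KO cells and 1029.8 CPM in WT cells. Tnfsf10 had an interval that held 0.

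Cytokine genes were few. Of 5 measured genes of chemokines, cytokines and their feedback 3 stood at least 2-fold higher and 0 at least 2-fold lower, with a median log2 ratio of 1.06. These were Socs3 and the 2 ligands of the macrophage receptor Csf1r, Csf1 at 44.8 CPM in KO cells and 13.7 CPM in WT cells (log2 ratio 1.54, 0.34 to 3.59) and Il34 at 46.6 CPM in KO cells and 20.6 CPM in WT cells (log2 ratio 1.06, 0.04 to 2.63), which rested on 4 and 6 WT UMIs. Cxcl16 had an interval that held 0, and Nfkbia stood at 75.2 CPM in KO cells and 113 CPM in WT cells. With cells thinned to 1000 UMIs Il34 came to a log2 ratio of -0.37. Among 6 measured interferon response genes 2 stood at least 2-fold higher, Ifitm3 at 382 CPM in KO cells and 79.0 CPM in WT cells (log2 ratio 2.24, 1.69 to 2.94) and Bst2 at 88.8 CPM in KO cells and 10.3 CPM in WT cells from 877 UMIs in KO and 3 in WT (log2 ratio 2.89, 1.56 to 5.39), and 0 lower. Irf1, Irf9 and Ifitm2 had intervals that held 0, and the list median was 0.55. In antigen presentation 2 of 7 measured genes stood at least 2-fold higher and 0 lower, with a median of 0.38. The immunoproteasome gene Psmb8 stood at 70.3 CPM in KO cells and 17.2 CPM in WT cells (log2 ratio 1.90, 0.80 to 3.66), and Cd74 at 92.1 CPM in KO and 0 in WT. Cd74, a class II chaperone of macrophages, was at 789 CPM in the other KO cells, and 3 KO members held 47.5% of its UMIs. The class I genes H2-K1 and H2-D1 were within their intervals of equality, and B2m stood at 126 CPM in KO cells and 79.0 CPM in WT cells. Of the complement and acute phase list 3 genes were measured, with 0 higher, 1 lower and a median of -0.06: the complement inhibitor Cd59a at 53.9 CPM in KO cells and 120.1 CPM in WT cells (log2 ratio -1.18, -1.65 to -0.62), Cd55, and Wfdc2 at 2902 CPM in KO cells and 2269 CPM in WT cells.

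Stress genes gave mixed counts. In the p53 list 3 of 11 measured genes stood at least 2-fold higher and 0 lower, with a median log2 ratio of 0.67. They were the cell cycle inhibitor Cdkn1a at 125 CPM in KO cells and 20.6 CPM in WT cells, Phlda3 at 46.3 CPM in KO cells and 3.43 CPM in WT cells and Perp at 72.8 CPM in KO cells and 27.5 CPM in WT cells. Bax, a mediator of apoptosis, stood at 316 CPM in KO cells and 158 CPM in WT cells (log2 ratio 0.98, 0.58 to 1.45). Of the 6 WT UMIs of Cdkn1a 5 came from 1 cell, and Phlda3 had 1 WT UMI. Genes that respond to dissociation of tissue gave 4 higher and 2 lower of 17, with a median of 0.37. The higher ones were Egr1 at 51.7 CPM in KO cells and 10.3 CPM in WT cells, the heat shock gene Hspb1 at 104 CPM in KO cells and 27.5 CPM in WT cells, Dnajb1 at 36.1 CPM in KO cells and 13.7 CPM in WT cells and Ier3 at 158 CPM in KO cells and 68.7 CPM in WT cells, and the lower ones Hspa1a at 64.5 CPM in KO cells and 158 CPM in WT cells and Klf10 at 13.7 CPM in KO cells and 37.8 CPM in WT cells. Jun, Btg2 and Hspa8 were level within their intervals. The part of dissociation in the other differences was not tested. Among 16 measured antioxidant genes 2 stood at least 2-fold higher and 0 lower, with a median of 0.04. These were Txnrd1, thioredoxin reductase, at 119 CPM in KO cells and 51.5 CPM in WT cells, and the metallothionein Mt1 at 271 CPM in KO cells and 113 CPM in WT cells. The cell cycle list gave 0 higher and 3 lower of 8 measured genes, with a median of -0.79. These 3, Mki67, Ccnd2 and Cenpf, had 52.4%, 84.6% and 96.4% of their WT UMIs in 1 cell each, and the remaining cyclin, Ccnd1, stood at 436 CPM in KO cells and 755 CPM in WT cells.

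Among genes of energy metabolism, the mitochondrially encoded ones and the nuclear ones of the same chain differed in their ratios. All 13 mitochondrially encoded genes were measured, 7 stood at least 2-fold lower in KO and 0 higher, with a median log2 ratio of -1.12. mt-Nd2, a subunit of complex I, stood at 2186 CPM in KO cells and 7394 CPM in WT cells, and mt-Co1 of complex IV at 18722 CPM in KO cells and 24063 CPM in WT cells. The mitochondrial limit of the rule bears on these genes, and the same direction held over the other cells of the libraries, where mt-Nd2 was at 3549 CPM in KO and 16596 CPM in WT. Median mitochondrial shares over all kept cells were 7.55% in KO and 26.8% in WT. The part of cell quality in these differences was not tested. Of 34 nuclear oxidative phosphorylation genes 0 were past 2-fold in either direction, with a median of -0.11. Ndufa4, a subunit of complex IV, stood at 1683 CPM in KO cells and 1706 CPM in WT cells, and Cox6a1, another, at 439 CPM in KO cells and 676 CPM in WT cells. Fatty acid oxidation gave 0 higher and 3 lower of 18, with a median of -0.39. Among these were Cpt1a, which lets fatty acids into mitochondria, at 43.3 CPM in KO cells and 96.1 CPM in WT cells, and the co-activator Ppargc1a at 72.5 CPM in KO cells and 144 CPM in WT cells (log2 ratio -1.01, -1.44 to -0.51). Glycolysis gave 0 higher and 2 lower of 17, with a median of -0.36. The glucose carrier Slc2a1 stood at 108 CPM in KO cells and 268 CPM in WT cells (log2 ratio -1.31, -1.64 to -0.96) and the regulator Pfkfb3 at 45.1 CPM in KO cells and 92.7 CPM in WT cells (log2 ratio -1.07, -1.60 to -0.42), while lactate dehydrogenase Ldha stood at 386 CPM in KO cells and 275 CPM in WT cells (log2 ratio 0.48, 0.17 to 0.83).

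Cilium and cyst genes stayed close to equality. Of 15 measured genes 0 were past 2-fold in either direction, with a median log2 ratio of -0.14. Kif3b, a partner of Kif3a, stood at 25.1 CPM in KO cells and 27.5 CPM in WT cells, Kifap3, the adaptor of the same motor, at 76.5 CPM in KO cells and 85.8 CPM in WT cells, and Ift88, which the motor carries along the cilium, at 24.8 CPM in KO cells and 27.5 CPM in WT cells. The polycystin gene Pkd2 stood at 109 CPM in KO cells and 82.4 CPM in WT cells, and Pkhd1, mutated in recessive polycystic kidney disease, at 219 CPM in KO cells and 213 CPM in WT cells. All of these had intervals that held 0. Bicc1, an RNA-binding protein whose loss causes cysts in mice, stood at 378 CPM in KO cells and 285 CPM in WT cells (log2 ratio 0.40, 0.10 to 0.74). Ift20, Ift57, Ift122, Arl13b, Cep290, Cys1 and Dzip1l had intervals that held 0. Hedgehog signals pass through the cilium, and among 9 measured genes of hedgehog and Wnt signalling 2 stood at least 2-fold higher and 2 lower, with a median of -0.36. Ptch1, a hedgehog receptor and target, stood at 15.8 CPM in KO cells and 37.8 CPM in WT cells, and Smo, the transducer, at 35.4 CPM in KO cells and 10.3 CPM in WT cells. Wnt7b, a ligand of the ureteric tree, stood at 42.5 CPM in KO cells and 17.2 CPM in WT cells and Wnt9b, another, at 26.7 CPM in KO cells and 54.9 CPM in WT cells. The counts in WT were between 3 and 16 UMIs for these 4 genes. Ptch1 came to 0.93 with cells thinned and Smo to -0.04 with cells weighted equally.

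Matrix and medullary genes changed little in number. Of 17 measured genes of matrix and fibrosis 1 stood at least 2-fold higher and 0 lower, with a median log2 ratio of 0.17. It was Sparc, at 49.2 CPM in KO cells and 3.43 CPM in WT cells, a gene that stood at 3808 CPM in KO and 2535 CPM in WT endothelial cells. The basement membrane collagen Col4a1 stood at 246 CPM in KO cells and 271 CPM in WT cells, the collagen Col4a4 at 421 CPM in KO cells and 505 CPM in WT cells, nephronectin, Npnt, at 1908 CPM in KO cells and 1596 CPM in WT cells and the protease inhibitor Timp2 at 319.6 CPM in KO cells and 209 CPM in WT cells. Genes by which cells of the medulla adjust to salt gave 0 higher and 1 lower, Hspa1a, of 8, with a median of -0.08. The osmotic factor Nfat5 stood at 171 CPM in KO cells and 168 CPM in WT cells, and aldose reductase, Akr1b3, at 105 CPM in KO cells and 99.5 CPM in WT cells. Of the genes that tell the sexes apart Xist had no UMI in either set of members, and the 3 measured Y-linked genes were within 2-fold.

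Depth differed between the member sets, so the share of cells with a gene was also read after every cell had been thinned to 1000 UMIs, which left out 104 KO and 13 WT members. Spp1 was then seen in 96.5% of KO and 22.4% of WT members, Clu in 75.2% of KO and 6.12% of WT members, and Krt18 in 60.9% of KO and 30.6% of WT members. Before thinning these shares were 98.0% of KO and 32.3% of WT members for Spp1, 89.1% of KO and 19.4% of WT members for Clu, and 90.1% of KO and 69.4% of WT members for Krt18. These 3 injury genes were thus seen in most KO members at either depth, whereas others were not, such as Anxa3, seen in 10.0% of KO and 0 of the WT members after thinning and 47.6% of KO members before. Avpr2 and Tfcp2l1 stood the other way at equal depth. Avpr2 was seen in 14.6% of KO and 34.7% of WT members, and Tfcp2l1 in 46.5% of KO and 77.6% of WT members, whereas before thinning Avpr2 stood at 62.5% of KO and 56.5% of WT members and Tfcp2l1 at 85.7% of KO and 83.9% of WT members. Thinning also moved the ratios of all genes, with a median log2 ratio of -0.27 in place of -0.05.

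Within the KO library the members were set beside the 756 cells that met the same rule but had 0.5% or more of Lcn2. Both sets come from the same library, and any gene whose level follows Lcn2 was sorted by the rule in part, so the values are a description. Of 6255 genes 13, or 0.208%, stood at least 2-fold higher in the low-Lcn2 cells and 12, or 0.192%, at least 2-fold lower. These shares cannot be set against those between the genotypes, since both KO sets are far deeper than the WT members. S100a6 stood at 1334 CPM in low-Lcn2 cells and 3535 CPM in high-Lcn2 cells (log2 ratio -1.41, -1.43 to -1.38). Clu stood at 3259 CPM in low-Lcn2 and 6685 CPM in high-Lcn2 cells (log2 ratio -1.04, -1.06 to -1.02), and Spp1 at 11409 CPM in low-Lcn2 and 19357 CPM in high-Lcn2 cells. The calcium-activated chloride channel regulator Clca3a2 stood at 30.4 CPM in low-Lcn2 and 95.9 CPM in high-Lcn2 cells, and the basement membrane gene Nid1 at 37.7 CPM in low-Lcn2 and 76.0 CPM in high-Lcn2 cells. Higher in the low-Lcn2 cells was Sgk1, at 125 CPM against 33.7 CPM in high-Lcn2 cells (log2 ratio 1.90, 1.73 to 2.07). So were Fstl1, at 87.0 CPM in low-Lcn2 and 39.8 CPM in high-Lcn2 cells, and the proton pump subunit Atp6v1b1 of intercalated cells, at 87.2 CPM in low-Lcn2 and 44.4 CPM in high-Lcn2 cells. Klk1, S100g, Fxyd2 and Gpx3, at 165, 182, 189 and 207 CPM in low-Lcn2 and 20.2, 36.3, 48.2 and 46.5 CPM in high-Lcn2 cells, are abundant in other tubule segments. The channel and receptor genes were closer, with Avpr2 at 197 CPM in low-Lcn2 and 176 CPM in high-Lcn2 cells, Kcnj1 at 312 CPM in low-Lcn2 and 219.9 CPM in high-Lcn2 cells, and Scnn1b at 338 CPM in low-Lcn2 and 258 CPM in high-Lcn2 cells.

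The members also differed among themselves by Lcn2. In KO 95 members had no UMI of Lcn2, 107 had less than 0.1% and 699 had 0.1% or more, with median depths of 871, 7583 and 9567 UMIs, so the first set was shallow. In WT these sets held 39, 21 and 2 cells. Spp1 stood at 6100.0, 8341 and 11815 CPM in the KO sets in that order, against 424 and 156 CPM in the first and second WT sets. The KO members with no UMI of Lcn2 thus had more Spp1 than the first and second WT sets. At their shallow depth 0 UMIs need not mean a lower share of Lcn2 than in the next set. Clu stood at 3069, 3603 and 3225 CPM in the KO sets and Krt18 at 1364, 1055 and 1084 CPM, with no rise along Lcn2. Socs3 stood at 121, 84.3 and 179.5 CPM in the KO sets and at 0 in each WT set. Sgk1 ran the other way, at 250.1, 226 and 113 CPM in KO. Klk1 and S100g stood at 2933 and 2076 CPM in the KO cells without Lcn2. In the KO cells with 0.1% or more they stood lower, at 52.2 and 93.0 CPM. Few cells weighed on both genes, since 3 KO members held 34.7% of the Klk1 UMIs and 3 held 24.9% of the S100g UMIs. With the limit lowered to 0.1%, 202 KO and 60 WT cells remained, at 2.79% of kept KO cells and 1.37% of kept WT cells and a ratio of 2.03, and 267 of the 346 higher genes and 236 of the 352 lower genes stayed past 2-fold.

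**Figure D5:**
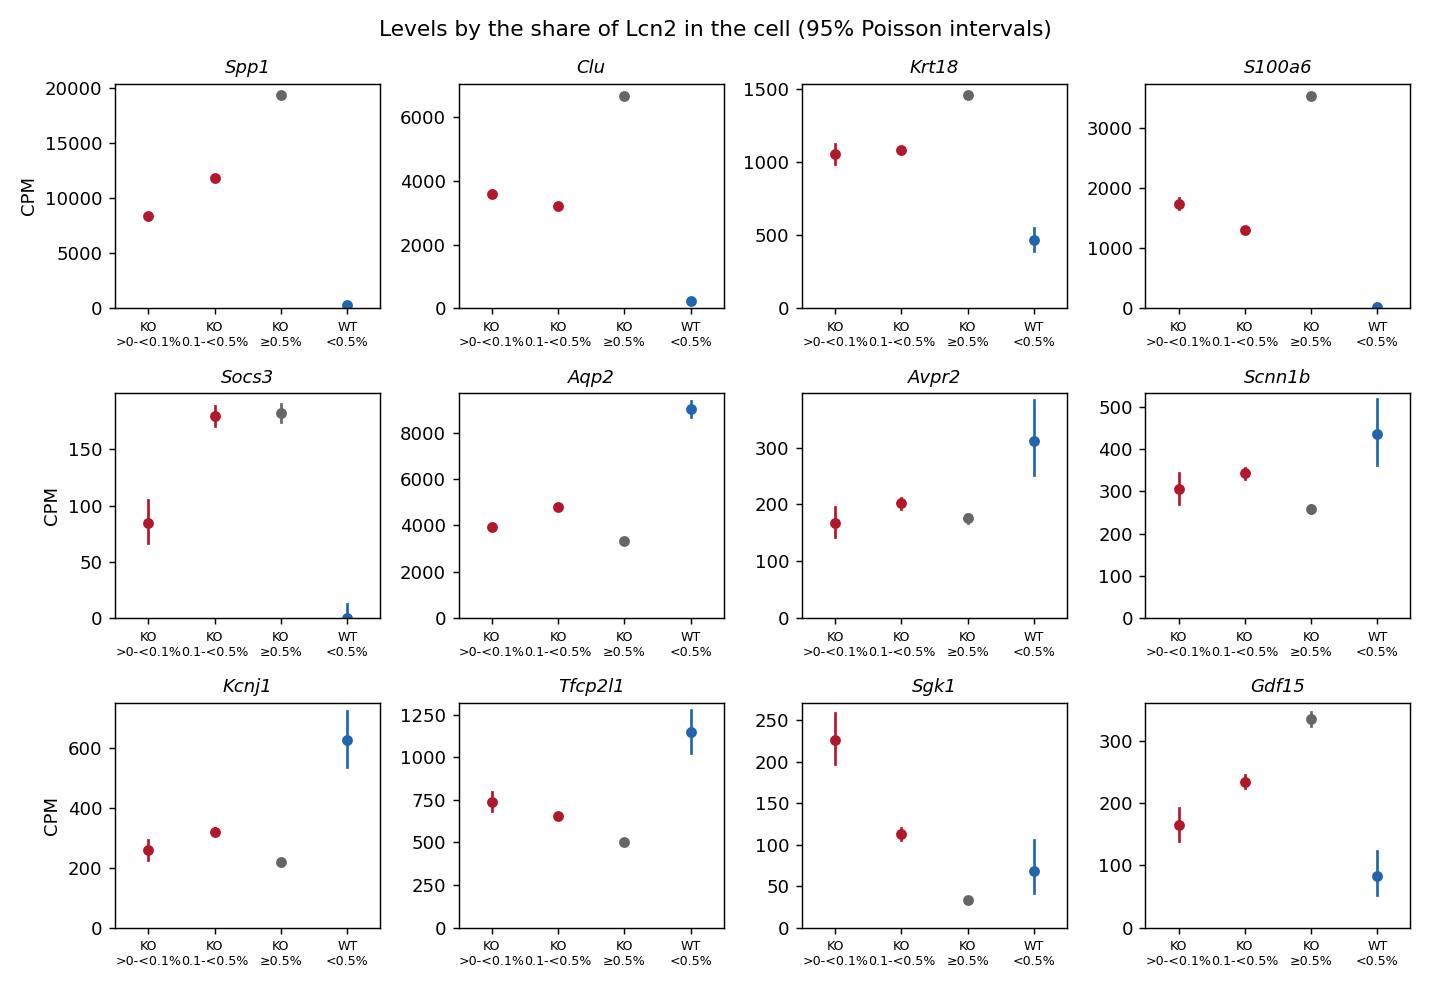
Levels in CPM of 12 genes in KO members with some Lcn2 but less than 0.1%, KO members with 0.1% to less than 0.5%, KO cells at 0.5% or more, which are not members, and all WT members, with 95% Poisson intervals. Spp1 and Gdf15 increase from left to right over the KO sets and Sgk1 decreases, while Kcnj1, Avpr2 and Tfcp2l1 stay below WT in each KO set.

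The same genes were read in 3 neighbouring cell sets of both libraries, chosen by their own marker genes: cells with the principal cell genes and 3 or more UMIs of Calb1 that met the other limits of the rule, Lcn2 included (216 KO and 115 WT cells), intercalated cells (491 KO and 289 WT cells) and thick ascending limb cells (472 KO and 358 WT cells). The higher genes of the members were mostly higher there too. Socs3 stood at 82.8 CPM in KO and 0 CPM in WT cells with Calb1, 101 CPM in KO and 0.584 CPM in WT in intercalated cells, and 86.5 CPM in KO and 0.274 CPM in WT in thick limb cells. Clu stood at 2679 CPM in KO and 308 CPM in WT cells with Calb1, 2629.8 CPM in KO and 103 CPM in WT in intercalated cells, and 1538 CPM in KO and 30.1 CPM in WT in thick limb cells. Neither was therefore confined to the members. Ociad2 stood at 126 CPM in KO and 0 CPM in WT cells with Calb1, but at 262 CPM in KO and 276 CPM in WT in intercalated cells. Rprm stood at 74.2 CPM in KO and 2.08 CPM in WT in cells with Calb1 and at 19.0 CPM in KO and 30.7 CPM in WT in intercalated cells. These 2 were near level or lower in the intercalated cells of KO.

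The cells with Calb1, which are deeper in WT than the members, gave a second reading of the functional genes in cells of the same duct system. Kcnj1 stood there at 283 CPM in KO and 549 CPM in WT, Kcne1 at 177 CPM in KO and 528 CPM in WT, and Nr3c2 at 27.0 CPM in KO and 62.5 CPM in WT. Scnn1g stood at 227 CPM in KO and 389 CPM in WT, Gata2 at 103 CPM in KO and 230.3 CPM in WT, Ehf at 164 CPM in KO and 339.7 CPM in WT and Sim1 at 42.8 CPM in KO and 107 CPM in WT. All 7 were lower in KO, as in the members. Avpr2 was near level at 223 CPM in KO and 235 CPM in WT, and Aqp4 stood the other way at 432 CPM in KO and 241 CPM in WT. Among the members and these 3 sets Sgk1 had its largest difference here, at 528 CPM in KO and 56.3 CPM in WT. Fstl1 stood at 38.6 CPM in KO and 131 CPM in WT and Gdf15 at 368 CPM in KO and 72.9 CPM in WT. Differences between these cell sets were not tested, since each rests on the same 2 libraries.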

How the data were processed

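Kidney single-cell RNA-seq (10x 3′ chemistry) from 5-week-old mice gave 1 KO and 1 WT library. Per the labels' protocols, a kidney was dissociated with a cold-active protease, red cells were lysed and dead cells removed before capture. The deposited files hold raw UMI counts per gene and barcode, and the authors' values were used as deposited. The submitters' processing notes name Cell Ranger 3.0.2, Seurat 3.1.1 and the build mm10, while the matrix headers give software version 3.1.0. No annotation of cells was used.

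Cells were chosen by the rule given at the start, with python 3.11.15, numpy 2.4.6, scipy 1.17.1 and pandas 2.3.3. The members and the 26 gene lists were chosen with earlier results of these data known. UMIs were summed over members per library and divided by the library's summed UMIs (CPM). Log2 ratios are KO over WT with 0.5 UMIs added to each sum, and intervals are exact 95% Poisson or Clopper-Pearson intervals, which cover counting error only. PCR duplicates are merged by UMI. A gene with a mean of at least 20 CPM counted as measured, and 2-fold as the size reported. Genes named were the 12 highest and 12 lowest by the rule given in the text, leaving aside the 9 genes of the rule and all haemoglobin, ribosomal, mitochondrial and predicted genes, plus the measured members of the functional lists; a few genes that the rule chose are counted but not reported here by name. With 1 library per genotype there is no residual spread, so no p-value was computed. Doublets were called with Scrublet in scanpy 1.11.5, which marked 170 KO and 54 WT cells, of which 27 KO and 1 WT cells were members, and were kept. Computations were checked on simulated counts. Promoters came from RefSeq on GRCm38.p6 and gene positions from GENCODE vM21 (30934 of 31053 genes matched), and figures were drawn with matplotlib 3.10.9.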

Additional observations from a re-analysis of the deposited data

Results flagged for a closer look

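The genes below stood lower in KO than in WT among the principal cells but higher in KO in another segment of the same libraries. In each case the difference between the cell sets was not tested, and each set rests on the same 2 libraries. What free RNA adds to these ratios was not tested either. Kitl, the ligand of Kit, had a log2 ratio of -2.47 in the principal cells, against 1.90 in intercalated and 2.55 in thick ascending limb cells. S100g, calbindin-D9k, had -2.67 in the principal cells, which came to -0.35 without 1 WT cell, against 2.16 in intercalated and 3.98 in thick ascending limb cells. Over all kept cells that were not members S100g stood at 1120 CPM in KO and 446 CPM in WT. Ptger1, the prostaglandin E2 receptor EP1, had -2.36 in the principal cells and 1.84 in thick ascending limb cells. Its level was low over all kept cells that were not members, at 14.9 CPM in KO and 3.70 CPM in WT. Cenpf, a mitotic gene, had -3.58 in the principal cells, where 54 of 56 WT UMIs came from 1 cell and the log2 ratio was 0.86 (-0.70 to 4.23) without it, so that the contrast rests on that cell, against 4.30 in intercalated and 1.78 in thick ascending limb cells.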

How the results depend on the processing

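No paired analysis was possible because each genotype gave 1 library, and no replicate could be left out. The cells were chosen anew or the levels rescaled under 13 alternatives, of which the rule with no limit on Calb1 and the one without cells carrying other types' genes were chosen after seeing the data. For the share of kept cells, KO over WT, the ratio was 5.36 with a mitochondrial limit of 25%, 5.98 with principal cell genes at 1% or more, 14.4 with neighbouring genes at 0 UMIs, 2.03 with Lcn2 under 0.1%, 16.1 with no Lcn2 limit and 3.81 with no Calb1 limit, and it stayed above 1 in each. The genes at least 2-fold higher and lower were 572 and 752 with neighbouring genes at 0 UMIs, 565 and 1337 with cells thinned to 1000 UMIs, and 592 and 665 with cells weighted equally, settings that leave fewer WT UMIs or raise the weight of shallow cells. They were 863 and 1009 among genes of at least 5 CPM, 56 and 58 among those of at least 100 CPM, 239 and 163 with no Calb1 limit, and 314 and 565 with totals that leave out mitochondrial genes, which put the median gene at -0.16. Thinning put it at -0.27, against -0.05 as reported. Kif3a had a log2 ratio of 1.04 with neighbouring genes at 0 UMIs and -2.89 with cells thinned. Among the genes and lists the report counts past 2-fold by name, those reversed were Cenpf (1.65) and Mki67 (1.51) with neighbouring genes at 0 UMIs, Fxyd2 (0.22) with Lcn2 under 0.1%, Il34 (-0.37), Ptch1 (0.93) and the median of the cytokine list (-0.35) with cells thinned, Klf10 (0.020) with no Calb1 limit, Klk1 (0.43) with principal cell genes at 1% or more, and Smo (-0.041) with cells weighted equally, and the cause was not tested. Over all genes past 2-fold 37 of the higher and 38 of the lower changed sign with cells thinned, 4 and 16 with neighbouring genes at 0 UMIs, and 11 and 0 with cells weighted equally. Scnn1a, below 2-fold, came to -0.25 with cells thinned. Aqp4, also below 2-fold, was lower in the KO members but had a log2 ratio of 0.84 in the cells removed by the Calb1 limit alone. Of the 346 higher genes 184, and of the 352 lower genes 139, stayed past 2-fold with no Calb1 limit. Depth limits the WT side, where 20 CPM is 5.83 UMIs.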
